A study of Saccharomyces cerevisiae with 4 samples.

Results

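The 10 genes described here encode the enzymes that carry pyruvate to ethanol or acetate in Saccharomyces cerevisiae. They are the pyruvate decarboxylase genes PDC1, PDC5 and PDC6, the alcohol dehydrogenase genes ADH1 to ADH5, and the aldehyde dehydrogenase genes ALD4 and ALD6. They were taken by locus name from a table of 7126 features, and all 10 were present and passed the expression filter. RNA from dbp2null cells and from wild-type cells was compared, with 2 libraries of each genotype, to ask how transcript levels differ without the DEAD-box RNA helicase Dbp2. The dbp2null strain, BTY115, is MATa with a KanMx cassette in place of DBP2. It also carries ura3, leu2 and his3 deletions, a TRP1 gene, and methionine and lysine requirements. The wild type is a MATa strain with deletions in his3, leu2, met15 and ura3. The MATa mating type and defects in ura3, leu2 and his3 are therefore common to both strains, while the lysine requirement is given for the mutant alone, so the DBP2 genotype and the strain background cannot be told apart. All cultures were in YPD, a rich glucose medium, at 30 °C and an OD600 of about 0.4, and total RNA was sequenced after depletion of ribosomal RNA. The series' design text speaks of a biological replicate, and nothing in the labels says more about how the 2 cultures of a genotype were separated.

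In budding yeast on glucose, pyruvate decarboxylase splits pyruvate into acetaldehyde and carbon dioxide, using thiamine diphosphate as its cofactor. Alcohol dehydrogenase then reduces acetaldehyde to ethanol and returns the NAD+ that glycolysis needs, and aldehyde dehydrogenase instead oxidises acetaldehyde to acetate, the route to cytosolic acetyl-CoA. Each step is served by several isozymes, of which one is abundant during growth on glucose and others are known for growth on ethanol, for mitochondria or for shortage of zinc, thiamine or sulfur.

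Because ADH2 stands beside a far more abundant close relative, its reads could be partly those of ADH1, and the stretches that decide this are shown first. All sequences are from the RefSeq R64 reference, the release behind the sacCer3 build named in the submitters' processing notes. Each of the 10 genes is annotated as 1 uninterrupted coding sequence that no other annotated gene overlaps. ADH1 and ADH2 agree at 930 of 1047 coding positions, or 88.8%, and share an unbroken identical run of 189 bases. The first pair of lines shows that run with 15 bases on each side. The second pair shows the 90-base window in which the genes differ most, at 22 positions. Capitals mark the bases that differ between the 2 genes.
ADH1 (chrXV:160199-160417, minus strand, coding positions 178 to 396): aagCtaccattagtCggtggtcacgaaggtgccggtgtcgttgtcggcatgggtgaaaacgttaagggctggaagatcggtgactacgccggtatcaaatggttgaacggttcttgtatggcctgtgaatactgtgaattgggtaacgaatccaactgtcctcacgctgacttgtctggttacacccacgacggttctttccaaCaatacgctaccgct
ADH2 (chrXIII:873942-874160, minus strand, coding positions 178 to 396): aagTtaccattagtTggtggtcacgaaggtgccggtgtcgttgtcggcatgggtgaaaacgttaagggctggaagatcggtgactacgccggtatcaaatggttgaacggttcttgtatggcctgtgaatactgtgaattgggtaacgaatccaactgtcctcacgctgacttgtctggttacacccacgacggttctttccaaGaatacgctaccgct
ADH1 (chrXV:159881-159970, minus strand, coding positions 625 to 714): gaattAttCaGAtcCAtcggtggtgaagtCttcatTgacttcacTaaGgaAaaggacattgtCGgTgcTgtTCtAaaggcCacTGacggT
ADH2 (chrXIII:873624-873713, minus strand, coding positions 625 to 714): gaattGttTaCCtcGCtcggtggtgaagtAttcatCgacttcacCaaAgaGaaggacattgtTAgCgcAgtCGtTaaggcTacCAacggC

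Of the 50-base windows of ADH2, 14.0% occur elsewhere in the genome, and of its 30-base windows 18.8% do. The read length and the treatment of reads with several matches are not stated in the labels or processing notes, so the ADH2 values carry this uncertainty. The same holds to a lesser degree for PDC1 and PDC5, which agree at 87.2% of coding positions but share 0.974% of their 50-base windows. Their longest identical run, of 65 bases, is shown with the same stretch of PDC6, and capitals mark the bases that differ from PDC1.
PDC1 (chrXII:233657-233751, minus strand, coding positions 331 to 425): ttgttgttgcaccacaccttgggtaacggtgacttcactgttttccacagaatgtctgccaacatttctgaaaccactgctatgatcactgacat
PDC5 (chrXII:411053-411147, plus strand, coding positions 331 to 425): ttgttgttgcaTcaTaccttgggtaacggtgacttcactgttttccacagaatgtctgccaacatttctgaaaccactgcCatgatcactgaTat
PDC6 (chrVII:652557-652651, minus strand, coding positions 331 to 425): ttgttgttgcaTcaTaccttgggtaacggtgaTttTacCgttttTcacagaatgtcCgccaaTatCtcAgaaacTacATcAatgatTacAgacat

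ADH3, ADH4, ADH5, ALD4 and ALD6 share no 30-base window with any other place in the genome. ADH3 and ADH5 match ADH1 at 69.9% and 73.2% of aligned positions. ADH4, which belongs to another family of dehydrogenases, matches at 45.3%.

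The libraries set limits on every value that follows. FPKM, the number of fragments scaled by feature length and by mapped fragments, summed to 5.01e+07 and 3.37e+06 in dbp2null replicates 1 and 2, and to 5.29e+07 and 3.22e+07 in wild-type replicates 1 and 2. The median feature read 38.1 and 37.3 FPKM in the dbp2null libraries and 30.0 and 27.1 FPKM in the wild-type libraries, so the sums do not describe a typical feature. The dbp2null libraries differed from each other with an SD of 1.53 on the log2 scale across features, and the wild-type libraries with an SD of 0.70. Read depth is unknown. DBP2 read 2.90 and 1.03 FPKM in dbp2null, against 213 and 199 FPKM in wild type, as the labelled genotypes have it. LYS2 was nearly absent from dbp2null and MET17, also called MET15, from wild type, as the labels have it. The HIS3 gene stood at 80.4 and 73.7 FPKM in dbp2null, against 60.9 and 78.9 FPKM in wild type, whereas both labels give a his3 deletion. The 4 a-cell markers had a median log2 difference of -1.87, all 4 below 0 and 2 of them without overlap, and 0 were called by limma (1 at an unadjusted p below 0.05). Over all features 20.7% lay below without overlap, 1.19% were called and 37.9% had an unadjusted p below 0.05. STE2 read 286 and 155 FPKM in dbp2null, against 218 and 222 FPKM in wild type, and BAR1 26.2 and 28.0 FPKM in dbp2null, against 67.6 and 63.9 FPKM in wild type. The pheromone genes MFA1 and MFA2 were far lower in dbp2null replicate 2 than in the other 3 libraries. MFA1 read 1295 and 57.7 FPKM in dbp2null, against 1084 and 2203 FPKM in wild type, and MFA2 14777 and 347 FPKM in dbp2null, against 23641 and 30039 FPKM in wild type. The 3 alpha-cell markers lay between 2.77 and 24.7 FPKM in dbp2null and between 0.804 and 16.0 FPKM in wild type.

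Differences also moved with expression level across the whole table. Among protein-coding genes with a wild-type mean under 5 FPKM the median log2(FPKM + 1) difference, dbp2null minus wild type, was 1.99 (335 genes). From 5 to 20 FPKM it was 0.89 (1858 genes), and from 20 to 100 FPKM 0.16 (2543 genes). From 100 to 300 FPKM it was -0.51 (738 genes), from 300 to 1000 FPKM -0.94 (239 genes), and above 1000 FPKM -1.26 (227 genes). Low genes thus read higher and high genes lower in dbp2null, and the wild-type values enter both sides of this relation. In the top range the median was -0.44 in dbp2null replicate 1 and -1.95 in dbp2null replicate 2. The part of this library-wide trend in the differences of the 10 genes was not tested, and each gene is therefore placed within its own range below.

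**Figure D1:**
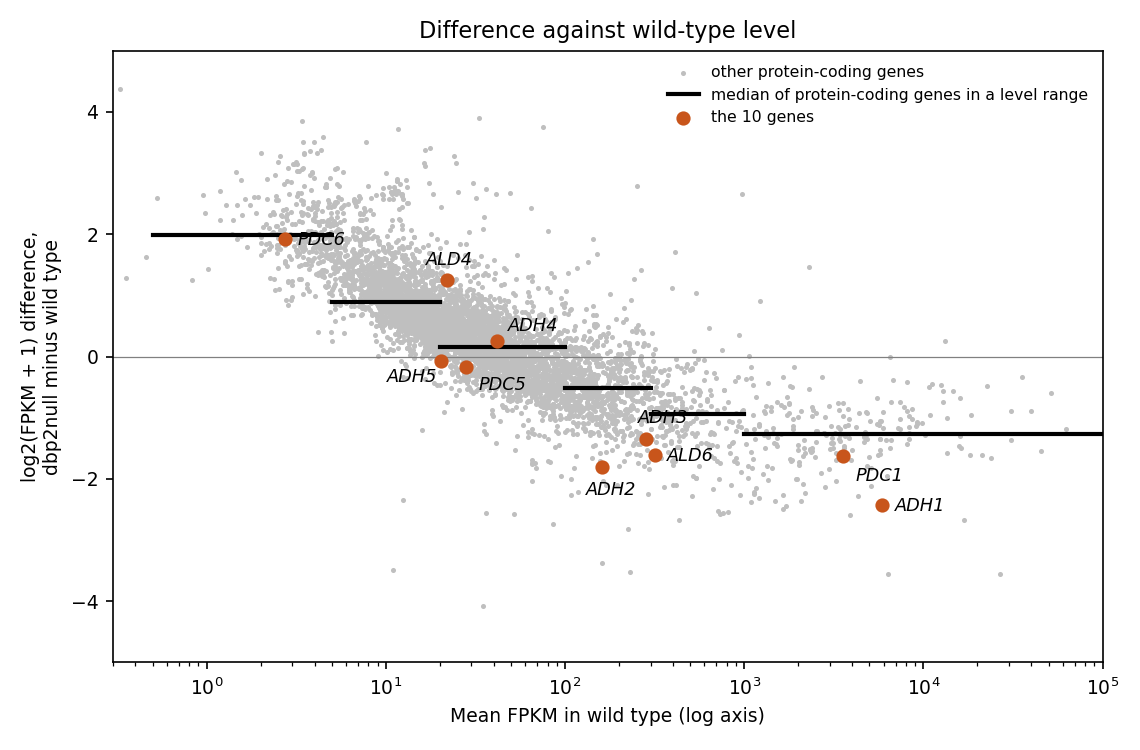
Difference on the log2(FPKM + 1) scale, dbp2null minus wild type, against the mean FPKM in wild type (log axis) for protein-coding genes tested (grey, 5903 shown and 37 beyond the axes), with the median of each level range (black bars) and the 10 genes (orange). PDC6 lies on its range's median, ADH1, ADH2 and ADH3 lie below theirs, and ALD4 lies above.

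ADH1, PDC1, ADH2, ADH3 and ALD6 read lower in both dbp2null libraries than in either wild-type library, while PDC6, ADH4 and ALD4 read higher in both, and PDC5 and ADH5 overlapped. None of the 10 passed the test over all features (limma, Benjamini-Hochberg adjusted p between 0.0559 and 0.837), where 1.19% of 6781 features did (0.973% higher and 0.221% lower). At an unadjusted p below 0.05 there were 6 of the 10, with 4 lower (ADH1, ADH2, ADH3 and ALD6) and 2 higher (PDC6 and ALD4), against 37.9% of all features (5.41% lower and 32.5% higher). Genotypes without overlap were common in the whole table, at 70.5% of features and 8 of the 10 genes. Both dbp2null values lay above both wild-type values in 49.8% of features, against 3 of the 10 genes, and below in 20.7%, against 5 of the 10. The median log2 difference of the 10 genes was -0.76, beside 0.28 over all features tested. For a single gene, 2 libraries against 2 allow an exact permutation p of 0.333 at the lowest.

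**Figure D2:**
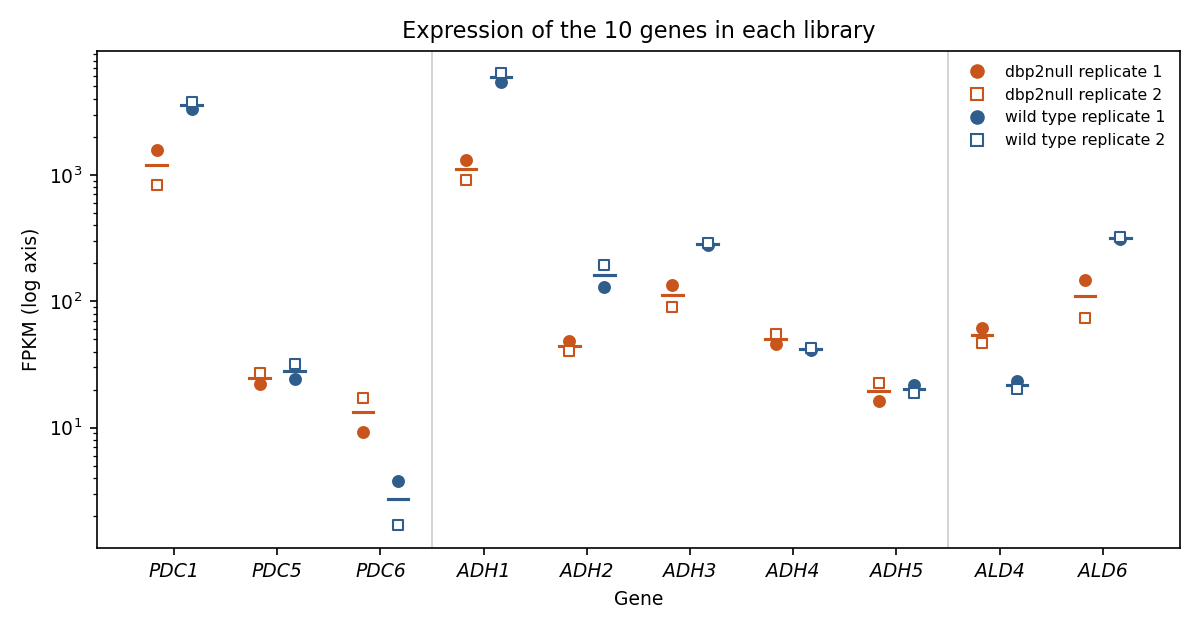
FPKM (log axis) of the 10 genes in each library, with dbp2null in orange left of wild type in blue, filled circles for replicate 1, open squares for replicate 2 and a bar at the mean. ADH1 and PDC1 lie far above the other genes in both genotypes, and ALD4 is the gene of the middle range whose dbp2null values lie clearly above wild type.

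PDC1, the major pyruvate decarboxylase gene (YLR044C, chromosome XII, 232390 to 234081), read 1576 and 833 FPKM in dbp2null, against 3329 and 3774 FPKM in wild type. The genotypes did not overlap, but the dbp2null libraries were far apart. The log2 difference was -1.63 (SE 0.83, 95% interval -3.81 to 0.55, limma adjusted p = 0.219). It lay 0.37 below the median of genes above 1000 FPKM, where 51 of the other 226 genes had a lower difference. Within dbp2null replicate 1 PDC1 was the 168th most abundant protein-coding transcript by FPKM and within replicate 2 the 115th, against the 105th and 98th place in the wild-type libraries.

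PDC5, a close relative that is known to be induced when PDC1 is missing or thiamine is short (YLR134W, chromosome XII, 410723 to 412414), read 22.0 and 27.3 FPKM in dbp2null, against 24.3 and 32.0 FPKM in wild type. The genotypes overlapped, with a log2 difference of -0.18 (SE 0.22, 95% interval -0.77 to 0.41, limma adjusted p = 0.574). That was 0.34 below the median of genes between 20 and 100 FPKM. PDC5 stood at 0.0140 and 0.0327 of the PDC1 level in dbp2null and at 0.00729 and 0.00846 in wild type. Part of the PDC5 signal could therefore be PDC1 reads, which was not tested. PDC6, a minor isozyme gene known for its induction in sulfur limitation (YGR087C, chromosome VII, 651290 to 652981), read 9.26 and 17.3 FPKM in dbp2null, against 3.81 and 1.69 FPKM in wild type. Both dbp2null values were higher (log2 difference 1.93, SE 0.56, 95% interval 0.46 to 3.40, limma adjusted p = 0.0838). That difference lay 0.06 below the median of the 335 genes under 5 FPKM, close to the middle of the genes that are scarce in wild type.

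The makeup of the PDC family differed between genotypes without overlap. PDC1 made up 98.1% and 94.9% of the summed PDC FPKM in dbp2null and 99.2% and 99.1% in wild type. PDC5 made up 1.37% and 3.11% in dbp2null and 0.723% and 0.839% in wild type. PDC6 made up 0.576% and 1.97% in dbp2null and 0.113% and 0.0444% in wild type. PDC1 thus supplied nearly all of the decarboxylase transcript in every library, and the shares of the other two were higher in both dbp2null libraries. Shares within a library do not depend on how that library was scaled, but they do carry the trend with level, and the PDC5 share could hold PDC1 reads.

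ADH1, the fermentative cytosolic alcohol dehydrogenase gene (YOL086C, chromosome XV, 159548 to 160594), had the widest difference of the 10 on the deposited FPKM, though not after quantile normalization (-0.92, beside -1.71 for ADH2) or protein-coding rescaling (-1.61, beside 2.62 for PDC6). It read 1303 and 917 FPKM in dbp2null, against 5456 and 6353 FPKM in wild type, without overlap and with means of 1110 ± 273 FPKM in dbp2null and 5905 ± 635 FPKM in wild type (SD, n = 2 each). The ratio of the means, wild type over dbp2null, was 5.32. The log2 difference was -2.43 (SE 0.84, 95% interval -4.65 to -0.20, limma adjusted p = 0.113). Only 7 of the other 226 genes above 1000 FPKM had a lower difference, and ADH1 lay 1.17 below their median. By library the difference was -2.18 in dbp2null replicate 1 and -2.68 in replicate 2, where the medians of its range were -0.44 and -1.95.

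ADH2, the glucose-repressed isozyme gene known for ethanol oxidation (YMR303C, chromosome XIII, 873291 to 874337), read 48.3 and 40.6 FPKM in dbp2null, against 129 and 193 FPKM in wild type. The genotypes did not overlap, and the wild-type libraries differed from each other more than the dbp2null libraries did. The log2 difference was -1.81 (SE 0.31, 95% interval -2.64 to -0.99, limma adjusted p = 0.0559). Of 738 genes between 100 and 300 FPKM, 13 had a lower difference. Given the identity shown above, part of the ADH2 signal could be ADH1 reads. ADH2 stood at 0.0371 and 0.0443 of the ADH1 level in dbp2null and at 0.0237 and 0.0304 in wild type, so that both genes read lower in dbp2null while their ratio was higher there. How many of the ADH2 reads came from ADH1 was not tested.

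ADH3, for the mitochondrial isozyme (YMR083W, chromosome XIII, 434788 to 435915), read 135 and 90.2 FPKM in dbp2null, against 278 and 289 FPKM in wild type. The groups did not overlap, with a log2 difference of -1.35 (SE 0.37, 95% interval -2.34 to -0.37, limma adjusted p = 0.0796). ADH3 shares no 30-base window with ADH1. Its range is that of ADH2, and 40 of 738 genes there had a lower difference.

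ADH4 and ADH5 showed small differences. ADH4, known for its induction in zinc shortage (YGL256W, chromosome VII, 15159 to 16307), read 45.5 and 54.9 FPKM in dbp2null, against 41.1 and 42.5 FPKM in wild type. Both dbp2null values were above wild type by a small margin (log2 difference 0.25, SE 0.20, 95% interval -0.28 to 0.79, limma adjusted p = 0.397), a direction that turned with median centring (-0.08). It lay 0.10 above the median of genes between 20 and 100 FPKM. ADH5, a minor isozyme gene (YBR145W, chromosome II, 533762 to 534817), read 16.3 and 22.7 FPKM in dbp2null, against 21.7 and 18.9 FPKM in wild type. Its genotypes overlapped (log2 difference -0.07, SE 0.23, 95% interval -0.67 to 0.54, limma adjusted p = 0.837), and it lay 0.23 below the median of that range.

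Within the ADH family ADH1 held a smaller share in both dbp2null libraries. ADH1 made up 84.2% and 81.5% of the summed ADH FPKM in dbp2null and 92.1% and 92.1% in wild type. ADH3 made up 8.73% and 8.01% in dbp2null and 4.69% and 4.19% in wild type, and ADH4 made up 2.94% and 4.88% in dbp2null and 0.693% and 0.616% in wild type. ADH2 held 3.12% and 3.61% in dbp2null and 2.18% and 2.80% in wild type. The summed ADH FPKM was 1548 and 1126 in dbp2null and 5926 and 6897 in wild type, while the summed PDC FPKM was 1607 and 878 in dbp2null and 3357 and 3808 in wild type. ADH transcript therefore read lower than PDC transcript relative to wild type. PDC1 over ADH1 was 1.21 and 0.908 in dbp2null and 0.610 and 0.594 in wild type, without overlap.

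**Figure D3:**
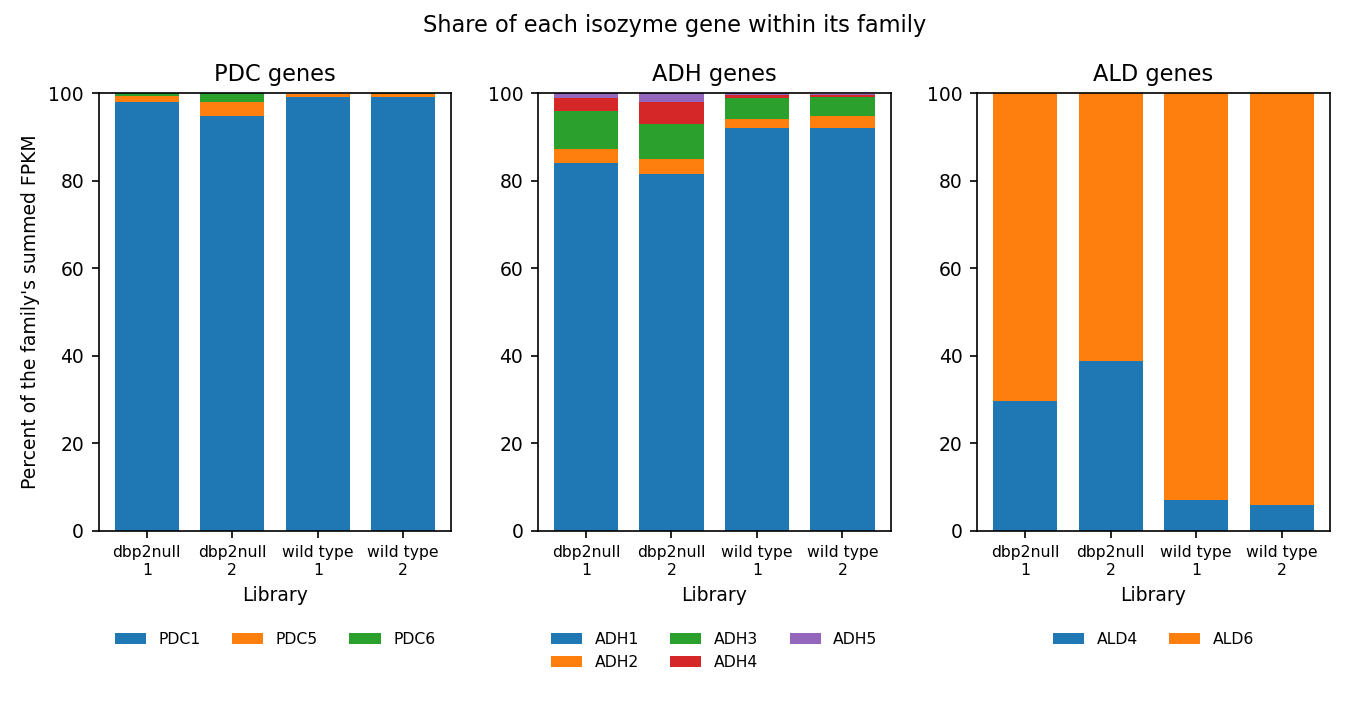
Percent of the summed FPKM of each family held by each of its genes, by library, with the dbp2null libraries left of the wild-type libraries. ADH1 holds 84.2% and 81.5% of the ADH sum in dbp2null against 92.1% in each wild-type library, and ALD4 holds 29.6% and 38.8% of the ALD sum in dbp2null against 7.03% and 5.91% in wild type.

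The aldehyde dehydrogenase genes went opposite ways. ALD6, for the cytosolic NADP+-dependent enzyme that makes most acetate on glucose (YPL061W, chromosome XVI, 432588 to 434090), read 147 and 73.2 FPKM in dbp2null, against 309 and 325 FPKM in wild type. Both dbp2null values were lower (log2 difference -1.60, SE 0.46, 95% interval -2.82 to -0.39, limma adjusted p = 0.0834). ALD6 lay 0.66 below the median of genes between 300 and 1000 FPKM, where 34 of the other 238 had a lower difference. ALD4, for the mitochondrial enzyme known to be repressed by glucose (YOR374W, chromosome XV, 1039840 to 1041399), read 61.6 and 46.4 FPKM in dbp2null, against 23.3 and 20.4 FPKM in wild type. Here both dbp2null values were higher (log2 difference 1.25, SE 0.22, 95% interval 0.68 to 1.83, limma adjusted p = 0.0559). Of 2543 genes between 20 and 100 FPKM, 2486 had a lower difference than ALD4, which lay 1.10 above their median, although at 21.9 FPKM it stood near the low end of that range.

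By library the ALD4 difference was 1.46 in dbp2null replicate 1 and 1.05 in replicate 2, where the medians of its range were 0.21 and 0.10. ALD4 made up 29.6% and 38.8% of the summed ALD FPKM in dbp2null and 7.03% and 5.91% in wild type. The ratio of ALD4 to ALD6 was 0.420 and 0.634 in dbp2null and 0.0756 and 0.0628 in wild type, a ratio of means of 7.61. By contrast, the ratio of ALD6 to PDC1 overlapped between genotypes. ALD6 over PDC1 was 0.0930 and 0.0878 in dbp2null and 0.0927 and 0.0860 in wild type.

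**Figure D4:**
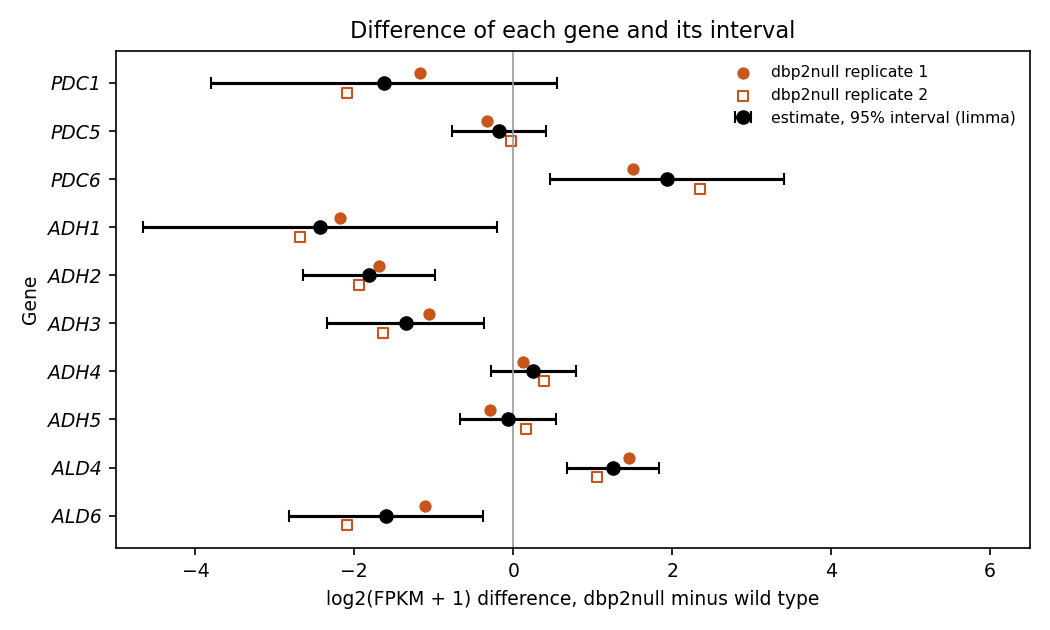
Difference of each gene on the log2(FPKM + 1) scale, dbp2null minus wild type, with its 95% interval from limma (black), and each dbp2null library against the wild-type mean (orange, filled for replicate 1 and open for replicate 2). The intervals of ADH1, ADH2, ADH3 and ALD6 lie below 0, those of PDC6 and ALD4 above 0, and those of PDC1, PDC5, ADH4 and ADH5 include 0. The intervals are not adjusted for the number of features.

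The order of the levels, on the per-length FPKM scale, also differed. In dbp2null it was PDC1, ADH1, ADH3, ALD6, ALD4, ADH4, ADH2, PDC5, ADH5 and PDC6 from the highest mean to the lowest. The values of PDC1 and ADH1 overlapped there, as did those of ADH3 and ALD6, of ALD4 and ADH4, of ADH4 and ADH2, of PDC5 and ADH5, and of ADH5 and PDC6. In wild type the order was ADH1, PDC1, ALD6, ADH3, ADH2, ADH4, PDC5, ALD4, ADH5 and PDC6, and only ALD4 and ADH5 overlapped among neighbours. ADH2 thus stood apart above ALD4 and ADH4 in wild type, while in dbp2null its values overlapped those of both. The place of ADH2 carries the uncertainty about ADH1 reads given above.

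Genes whose values over the 4 libraries lay nearest to those of PDC1, by Euclidean distance of centred log2 values among 5116 named genes, were SSB2, a ribosome-associated Hsp70 gene, and the ribosomal protein genes RPL2A and RPL16A (distances 0.06, 0.07 and 0.08). For ADH1 they were SSA2, a cytosolic Hsp70 gene, PGK1, for phosphoglycerate kinase, and RPL8A (0.16, 0.25 and 0.25). SSA2 read 385 and 260 FPKM in dbp2null, against 1712 and 1719 FPKM in wild type. For ADH2 they were ASP3-2, ASP3-4 and ASP3-3 (0.24, 0.24 and 0.28), copies of the gene for extracellular asparaginase that can share reads with one another and so count as 1 pattern. With 4 libraries such likeness is a description of a few values.

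Beyond the 10 genes, their paralogs and other dehydrogenases were examined as a list of 10. Of these ARO10, for phenylpyruvate decarboxylase and related to the PDC genes, was the 1 that passed the test, and 7 had an unadjusted p below 0.05. It rose to 56.1 and 43.1 FPKM in dbp2null, against 13.5 and 13.6 FPKM in wild type (log2 difference 1.79, SE 0.20, limma adjusted p = 0.0469). That call was lost in 10 of 14 alternatives, with an adjusted p by limma between 2.68e-05 and 0.396 over all 14. The list's median difference was 0.81, with 7 members above wild type without overlap and 2 below. Over all features 1.19% were called (0.973% higher in dbp2null) and 37.9% had an unadjusted p below 0.05. Without overlap, 49.8% lay above and 20.7% lay below. ADH7, a broad-specificity NADPH-dependent alcohol dehydrogenase gene, read 26.8 and 53.1 FPKM in dbp2null, against 6.89 and 4.40 FPKM in wild type. The stress-responsive pair ALD2 and ALD3, near-identical neighbours that can share reads, read 29.1 and 31.6 FPKM and 35.1 and 37.6 FPKM in dbp2null, against 16.6 and 13.6 FPKM and 19.7 and 14.7 FPKM in wild type. ALD5, for a second mitochondrial aldehyde dehydrogenase, also read lower, at 59.8 and 38.2 FPKM in dbp2null, against 152 and 163 FPKM in wild type. ARO10, ADH7, ALD2 and ALD3 lay between 5 and 20 FPKM in wild type. The median of protein-coding genes there was 0.89, and 98.9% had a difference above 0. Beside that median the differences were 1.79 for ARO10, 2.57 for ADH7, 0.97 for ALD2 and 1.05 for ALD3. For ALD5 the difference was -1.70, beside a median of -0.51 from 100 to 300 FPKM.

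The acetyl-CoA synthetase genes, which act on the acetate made by the aldehyde dehydrogenases, also went opposite ways. ACS2, the isozyme gene used on glucose, read 46.4 and 44.8 FPKM in dbp2null, against 111 and 111 FPKM in wild type. ACS1, the glucose-repressed isozyme gene, read 16.0 and 22.5 FPKM in dbp2null, against 7.96 and 8.10 FPKM in wild type. Neither passed the test (log2 difference -1.26 for ACS2 and 1.15 for ACS1, limma adjusted p = 0.0559 and 0.0639). The medians of protein-coding genes in their ranges were -0.51 for ACS2 and 0.89 for ACS1. Each thus went the way of most genes at its level. ACS1 lay within the quartiles of its range (0.62 to 1.26), while ACS2 lay below the lower quartile of its range (-0.85). With ACH1, an acetyl-CoA hydrolase gene (log2 difference 0.75), 0 of 3 were called by limma and 3 had an unadjusted p below 0.05, a level that 37.9% of all features passed. Among 10 genes for other fates of pyruvate, 0 were called by limma, 4 had an unadjusted p below 0.05, near the share over all features, and the median log2 difference was -0.44. Without overlap, 5 of these 10 lay below wild type and 2 above, and 3 overlapped. Over all features 20.7% lay below and 49.8% above. The pyruvate dehydrogenase subunit genes PDA1, PDB1, LAT1 and LPD1 read lower in both dbp2null libraries, with log2 differences between -0.996 and -0.698, while PDX1 overlapped (0.04). PDA1, PDB1, LAT1 and LPD1 lay between 100 and 300 FPKM in wild type, where the median of protein-coding genes was -0.51.

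**Figure D5:**
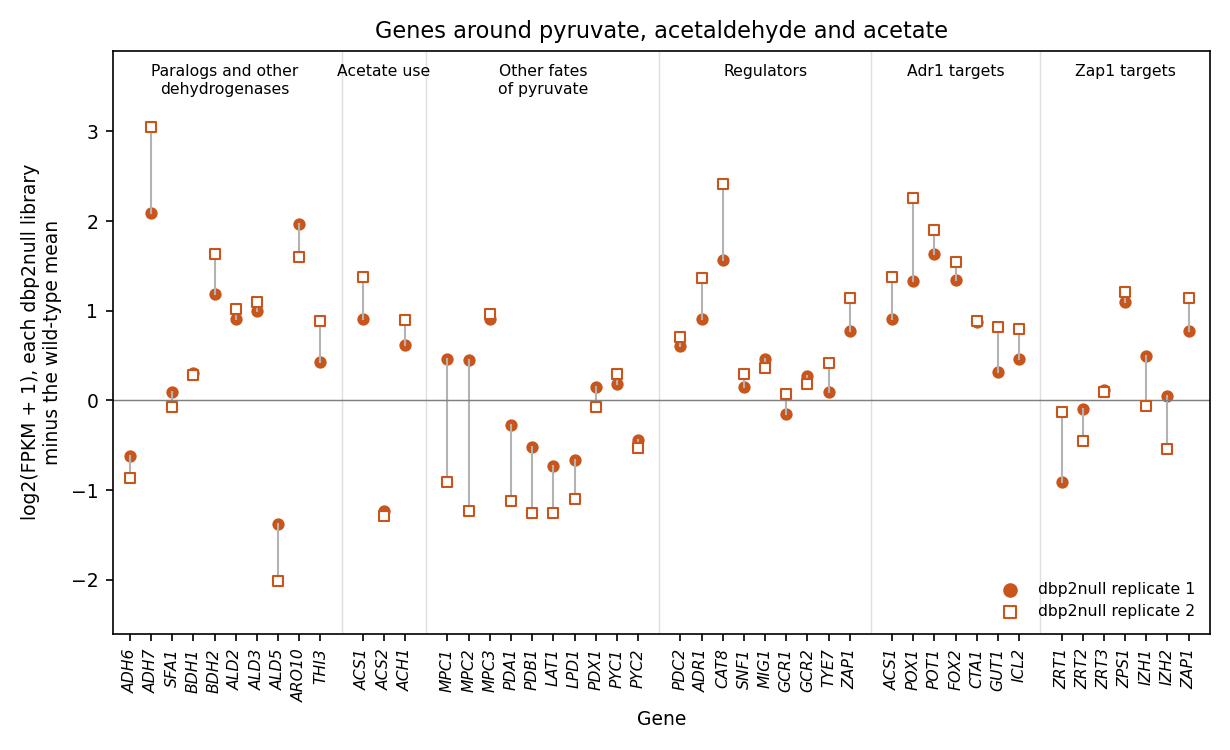
Each dbp2null library minus the wild-type mean, on the log2(FPKM + 1) scale, for the genes of 6 lists, with filled circles for replicate 1 and open squares for replicate 2 joined by a line for each gene. All 7 Adr1 targets outside the 10 genes lie above 0 in both libraries, and the pyruvate dehydrogenase genes from PDA1 to LPD1 lie below 0.

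Of 9 genes for regulators of these enzymes 7 lay above wild type without overlap, as did 49.8% of all features. By limma 0 were called and 4 had an unadjusted p below 0.05, near the 37.9% of all features. ADR1, the activator of ADH2 on ethanol, read 14.2 and 19.9 FPKM in dbp2null, against 7.95 and 6.34 FPKM in wild type, and CAT8, an activator of gluconeogenic genes, read 10.5 and 19.8 FPKM in dbp2null, against 3.55 and 2.35 FPKM in wild type. Both are scarce transcripts, in the ranges where the medians of all protein-coding genes were 0.89 and 1.99, beside differences of 1.13 for ADR1 and 1.99 for CAT8. GCR1, an activator of glycolytic genes, overlapped at 26.0 and 30.6 FPKM in dbp2null, against 30.7 and 27.5 FPKM in wild type.

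ADH2 and ALD4 are both known targets of Adr1, and their values went opposite ways. Part of the ADH2 signal could be ADH1 reads, so this contrast carries that uncertainty too. The 7 other Adr1 targets examined (ACS1, POX1, POT1, FOX2, CTA1, GUT1 and ICL2) all lay above wild type without overlap, as did 49.8% of all features. Their median log2 difference was 1.15. Of these 0 were called by limma and 6 had an unadjusted p below 0.05, against 37.9% of all features. All 7 were under 20 FPKM in wild type, where most genes read higher, so ADH2 differed from them in level as well as in direction. The median of protein-coding genes was 1.99 under 5 FPKM and 0.89 from 5 to 20 FPKM. The Adr1 site of ADH2 is a perfect inverted repeat of 22 bases at positions -292 to -271 from the start codon, in capitals below. The ALD4 line shows 2 adjoining copies of CTCCAA, the reverse complement of TTGGAG, that the search found upstream of that gene.
ADH2 (chrXIII:874579-874658, minus strand, positions -321 to -242): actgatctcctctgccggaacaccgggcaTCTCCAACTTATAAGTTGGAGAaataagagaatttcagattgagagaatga
ALD4 (chrXV:1039602-1039651, plus strand, positions -238 to -189): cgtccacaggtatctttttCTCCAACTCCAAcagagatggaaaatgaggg

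Within 500 bases before the start codon, on either strand, TTGGAG occurred 2 times upstream of ADH2, 2 times upstream of ALD4, 1 time upstream of ADH4 and at none of the other 7 genes. It occurred at 18.5% of 6000 protein-coding genes. CTTCC, the core of Gcr1 sites, occurred 5 times upstream of ADH1, 2 times each upstream of ADH5 and ALD4 and 1 time each upstream of ADH3 and ADH4. It was found at 66.1% of those genes, and a match is a description of the letters alone.

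Genes of zinc supply were listed because ADH4 is a target of the zinc-responsive activator Zap1, which in zinc shortage is also known to lower ADH1 and ADH3. The 7 genes of the Zap1 list went both ways, with a median log2 difference of 0.11, 0 called by limma and 2 at an unadjusted p below 0.05. Over all features 1.19% were called and 37.9% had an unadjusted p below 0.05. ZRT1, for the high-affinity zinc transporter, read 38.6 and 67.0 FPKM in dbp2null, against 73.6 and 73.7 FPKM in wild type. ZRT3, for the vacuolar zinc transporter, read 51.1 and 50.2 FPKM in dbp2null, against 45.7 and 48.2 FPKM in wild type. ZPS1 read 23.8 and 25.7 FPKM in dbp2null, against 11.5 and 9.70 FPKM in wild type. ZAP1, which activates its own gene, read 15.1 and 19.7 FPKM in dbp2null, against 8.997 and 7.80 FPKM in wild type (log2 difference 0.96, limma adjusted p = 0.0723). ZPS1 (log2 difference 1.15) and ZAP1 lay between 5 and 20 FPKM in wild type. The median of protein-coding genes there was 0.89, and 98.9% had a difference above 0. Of the 7 genes 3 lay above wild type without overlap, 1 below, and 3 overlapped, where 49.8% of all features lay above and 20.7% below. The part of zinc in the values of ADH1, ADH3 and ADH4 was not tested.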

How the data were processed

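The authors deposited FPKM for 4 libraries in 1 table, per the file headers. Per the submitters' processing notes, CASAVA, TopHat, Cufflinks and edgeR were named without roles, with the build sacCer3. Strand settings, aligner parameters and releases are not stated there. The deposited values hold no counts. Multiples of the smallest length-scaled value were looked for among 500 low values per library, and between 9.6% and 12.4% lay within 0.05 of a whole multiple, where an even spread gives 10%, so whole reads were not recovered, depth is unknown and no counting interval is given.

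After 3 blank rows were left out, 7126 features remained, and 6079 matched the RefSeq annotation by name. The fit took features averaging 1 FPKM or more over the libraries, on log2(FPKM + 1), a scale that understates changes of low genes. It used limma 3.58.1 in R 4.3.3 (mean-variance trend, all 4 libraries, no covariate, two-sided, Benjamini-Hochberg over 6781 features, called below an adjusted p of 0.05). The script was tested on simulated data with the same spread in every library and no trend of the difference with level. The deposited libraries differ from that in both respects, so the test covers the code alone. P-values rest on the spread between these 2 libraries per genotype, which limma draws towards a trend with level fitted over all features. For abundant genes this matters. The unadjusted limma p was 0.0382 for ADH1 and 0.111 for PDC1 with the trend, and 0.00151 and 0.0186 without it. Neither gene was called without it (limma adjusted p = 0.114 and 0.116). Named genes are the 10 genes, label and mating-type markers, 6 lists chosen by role, and the 3 nearest patterns of PDC1, ADH1 and ADH2. The members and lists were chosen with earlier results of these data known. Shares, ratios and orders are descriptions without a test.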

Additional observations from a re-analysis of the deposited data

How the results depend on the processing

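None of the 10 genes was called with all 4 libraries except with a pseudocount of 5 (2 called, ADH2 with adjusted p = 0.0485 and ALD4 with 0.0484) and with the pairing below. The number of called features, 81 (66 higher and 15 lower in dbp2null), became 8 (2 and 6) with a pseudocount of 0.1, 425 (380 and 45) with a pseudocount of 5, 13 (4 and 9) among features averaging 10 FPKM or more, 13 (3 and 10) with median centring, 5 (1 and 4) with quantile normalization, 41 (29 and 12) without the trend and 100 (48 and 52) with protein-coding rescaling. Leaving out 1 library gave 0 to 2651 called features (0 to 1160 higher and 0 to 1491 lower) and 0 to 7 called members. The 7 were called without dbp2null replicate 1 (PDC1, PDC6, ADH1, ADH2, ADH3, ALD4 and ALD6, adjusted p from 0.0107 to 0.0483), where the spread comes from the wild-type pair alone and the lone dbp2null library is assumed to vary alike. Without wild-type replicate 1, 0 features were called by limma and 1483 had an unadjusted p below 0.05.

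The median difference of the 10 genes was -1.35 with that filter, which drops PDC6, -1.10 with median centring, and between -0.87 and -0.69 without each library. Protein-coding rescaling turned it to 0.045, but moved the median of all features to 1.08, so that the 10 genes still lay 1.04 below it. The count of genes above wild type without overlap was 1 with quantile normalization, and the count below was 3 with protein-coding rescaling. Genes near 0 turned sign: ADH4 with median centring (-0.082), PDC5 and ADH5 with protein-coding rescaling (0.62 and 0.73), PDC5 without wild-type replicate 2, within a range of -0.37 to 0.014 when 1 library was left out, and ADH5 without dbp2null replicate 1 (0.16) and without wild-type replicate 1 (0.029), within a range of -0.30 to 0.16. The direction of the other 7 did not turn in any alternative run, but sizes moved by over 1.5 times. Quantile normalization gave -0.08 for PDC1, 0.26 for PDC6, -0.92 for ADH1 and -0.78 for ADH3. Protein-coding rescaling gave -0.81 for PDC1, -1.61 for ADH1, -0.998 for ADH2, -0.53 for ADH3, -0.78 for ALD6 and 2.05 for ALD4, and a pseudocount of 5 gave 1.22 for PDC6. The cause was not tested.

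The labels do not say that replicate numbers pair libraries. The replicate 1 minus replicate 2 differences of the genotypes correlated at r = -0.11 over 6781 features, so same-numbered libraries did not deviate together. With the replicate block 16 features were called (6 higher and 10 lower) and 0 of the 10 genes. As chosen after the data were seen, the block with crossed numbers called 2667 (2454 and 213) and 3 of the 10 genes (PDC6, ADH2 and ALD4).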
